A study of Mus musculus with 2 samples.

Results

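The genes described here are the tumour necrosis factor (TNF) superfamily ligands, their receptors, and the proteins that carry the receptor signal to the NF-kB transcription factors. They were taken by symbol: every gene whose symbol starts Tnfsf or Tnfrsf or is Traf followed by a digit, with a fixed list of ligands, receptors, kinases, NF-kB subunits and inhibitors that carry other names. All symbols of the list were found, which gave 73 of 23411 genes. They comprised 19 ligands, 27 receptors, 12 adaptors, 4 kinases, 5 NF-kB subunits and 6 inhibitors or atypical IkB proteins.

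Poly-A RNA had been sequenced from mTEC, the epithelial cells of the thymic medulla, taken from B6 mice. Cells with high and with low surface MHC class II were sorted from 1 pool of 3 animals, and each fraction gave 1 library, so 2 libraries were compared. No allele, treatment or age was given in the labels. Surface MHC class II is widely used to part the more mature from the less mature mTEC, but it is a gate and not a lineage label.

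TNF superfamily ligands are mostly membrane-bound trimers that cluster receptors on a neighbouring cell. The receptors recruit TRAF and cIAP adaptors, and these lead either to the canonical pathway, in which the IKK complex removes IkB inhibitors from RelA and c-Rel dimers, or to the non-canonical pathway, in which the kinase NIK (gene Map3k14) drives processing of the p100 protein (gene Nfkb2) for dimers with RelB. In the thymic medulla this system is known for RANK, CD40 and the lymphotoxin beta receptor, whose signals through NIK and RelB are needed for mTEC to form and mature. Their ligands come largely from lymphoid cells, and the decoy receptor osteoprotegerin limits RANK signalling.

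The MHC-II high library held 138368535 reads on the 23411 genes and the low library 56077479. CPM are read counts relative to a library total scaled with TMM, a method that sets the bulk of genes near equal. Genes with a mean of at least 1 CPM over both libraries were compared, 17438 in all. The call of higher or lower was made where the whole exact 95% interval of its ratio (Clopper-Pearson, counting error only) lay beyond 2-fold. Pairs of values are given with the MHC-II high library first. As each group had 1 library, there was no replicate check and no p-value, and every difference below is one between these 2 libraries. PCR reads without molecular identifiers are not independent molecules, so the intervals are too narrow for differences between animals or sorts.

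The sort labels were read against marker genes. The epithelial gene Epcam was at 621 against 586 CPM, and Aire at 571 and 21.04 CPM, while Krt5 was at 768 and 5863 CPM. The 10 epithelial markers summed to 9929 and 20361 CPM, with 2 higher and 3 lower. H2-Aa, an MHC class II gene, was at 4485 and 2240 CPM, a ratio of 2.00 (1.99 to 2.01). Genes of other cells were present in both, with none of the listed markers at 0 reads. Summed over 8 endothelial markers the level was 71.9 against 482 CPM, with 8 of 8 lower in the high one. Over 7 fibroblast markers it was 190 and 1088 CPM (5 lower, 0 higher), and over 5 erythroid markers 61.6 and 2142 CPM (2 of 3 past the minimum lower). Over 4 mural cell markers it was 494 and 768 CPM (1 lower). The lower mural sum came from Acta2 (48.6 against 463 CPM), while 3 of the 4 had point ratios above 1, within 2-fold. Dendritic cell and macrophage markers summed to 96.9 and 42.9 CPM over 10 genes, with 5 of 9 past the minimum higher and 0 lower. B cell markers summed to 26.9 and 22.9 CPM over 4 genes (1 of 3 higher), and T cell markers to 47.2 and 70.7 CPM over 10 (1 of 8 higher, 2 lower). The 3 pan-leukocyte markers summed to 629 and 222 CPM, of which Laptm5 gave 590 and 184 CPM, while Ptprc was at 13.6 and 19.4 CPM. In such bulk RNA, fewer cells of a type and less RNA per cell cannot be told apart.

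**Figure D1:**
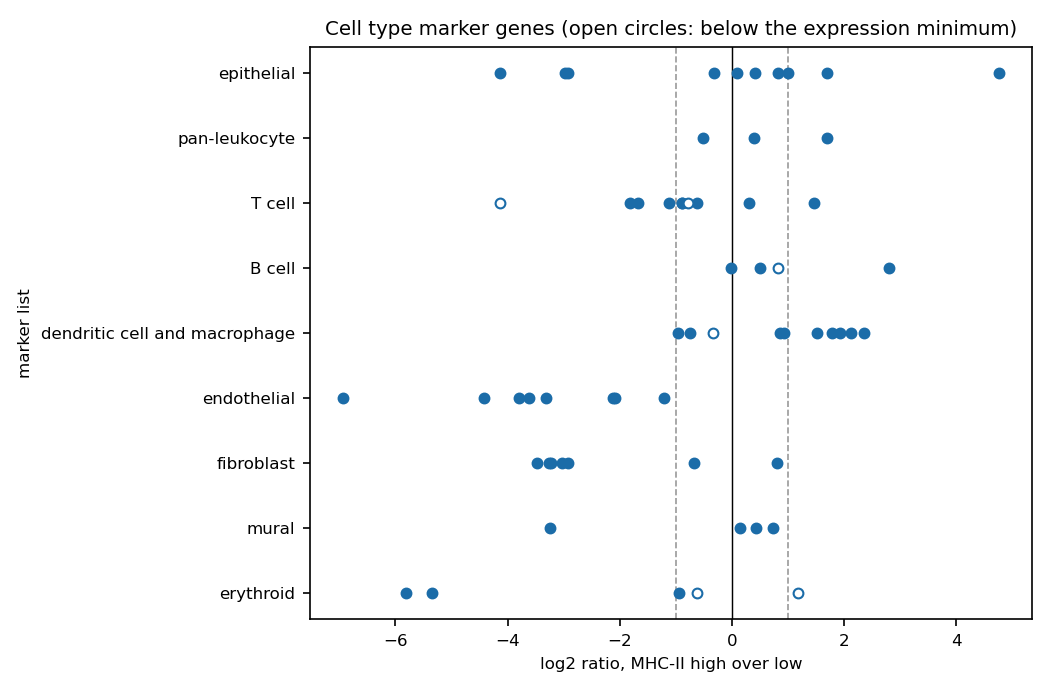
Each circle is 1 marker gene, placed by its log2 ratio of MHC-II high over MHC-II low (x axis) in the row of its cell type list, with dashed lines at 2-fold and open circles for genes under a mean of 1 CPM. All 8 endothelial markers lie left of the lower 2-fold line, while 5 of the 10 dendritic cell and macrophage markers lie beyond the upper one.

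Of the 73 genes, 70 passed the expression minimum. Of these, 23 were higher and 5 lower on the MHC-II high side, that is 32.9% and 7.14%, where 14.5% of all genes were called higher and 10.9% lower. A point ratio above 1 was found for 46 of the 70, beside 49.3% of all genes. The median log2 ratio of the 70 was 0.58, beside −0.01 over all genes. Lta, Tnfsf4, Tnfrsf13c and Tnfrsf17 passed only through the high library and so had to differ. Among the 66 at 1 CPM or more in both libraries, 19 were higher and 5 lower, where 12.2% and 9.87% of all such genes were. The split depends on the library totals. With unscaled totals, which move the median of all genes by 0.29 on the log2 scale, 30 were higher and 4 lower, beside 19.6% and 7.48% of all genes. With the read totals that the deposited RPKM imply, a shift of that median by 1.0025, 46 were higher and 0 lower, beside 44.2% and 3.26%.

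**Figure D2:**
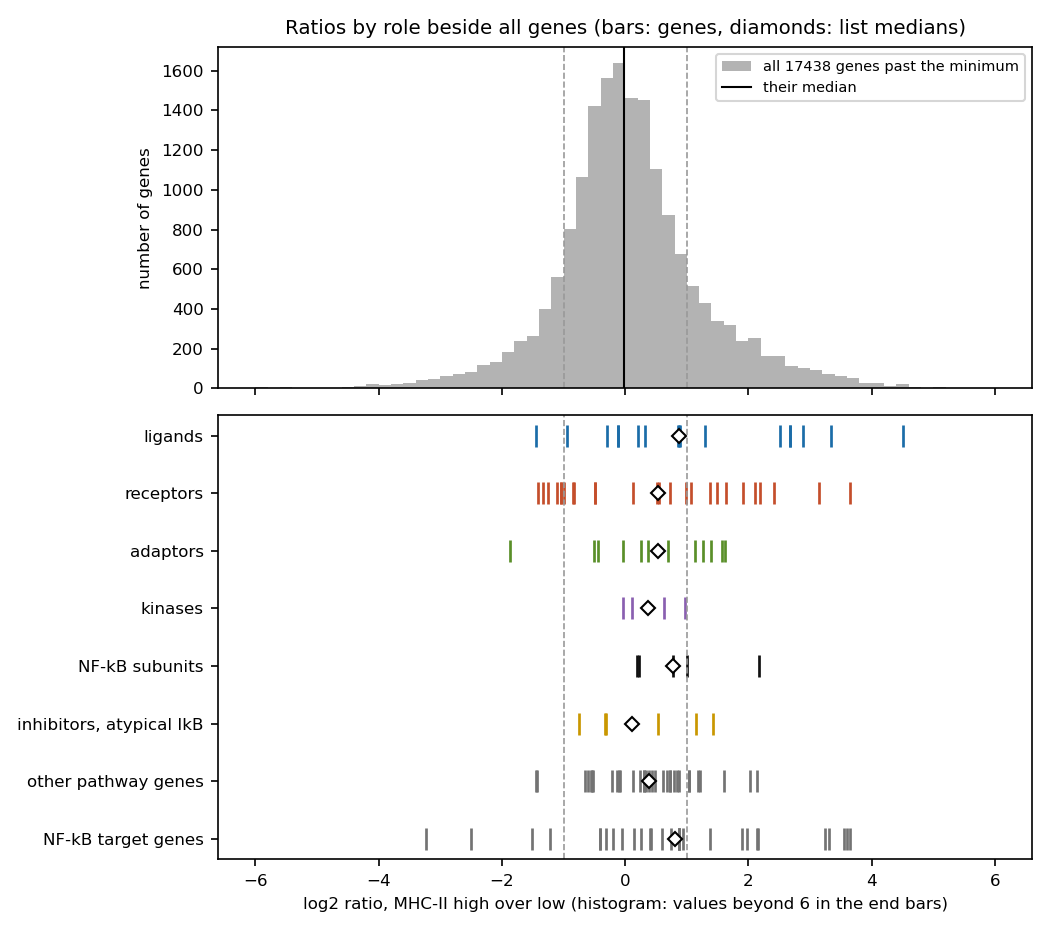
The upper panel is a histogram of log2 ratios (MHC-II high over low) of all 17438 genes past the minimum, with their median as a line. The lower panel shows each gene of the pathway as a bar by role, with list medians as diamonds and dashed lines at 2-fold; the median is 0.88 for ligands, 0.53 for receptors and 0.11 for inhibitors.

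Of 17 ligand genes past the minimum, the MHC-II high library had 6 higher and 1 lower, 35.3% and 5.88%, beside 14.5% and 10.9% of all genes. Among the 15 at 1 CPM or more in both libraries 4 were higher, beside 12.2% of all such genes. The higher ones were Lta, Tnfsf9, Tnf, Tnfsf4, Cd70 and Tnfsf15. Lta, which encodes lymphotoxin alpha, had 2331 reads (15.3 CPM) against 34 reads (0.670 CPM), and its ratio of 22.8 (interval 16.3 to 33.0) was the highest of the 73. Tnf itself was at 101 against 13.7 CPM, a ratio of 7.38 (6.84 to 7.97). Their neighbour Ltb, whose product joins lymphotoxin alpha in the membrane-bound ligand of the lymphotoxin beta receptor, was at 18.1 against 10.03 CPM, and its interval of 1.64 to 1.99 stayed within 2-fold. The 3 genes stand side by side in the RefSeq gene order, and their ratios differed. Of 9 dendritic cell and macrophage markers past the minimum, 5 were also called higher and 0 lower (96.9 against 42.9 CPM in sum). Flt3 was 5.12-fold and Csf1r 4.37-fold higher. Point ratios were above 1 for 7 of the 9 and below 1 for 2. These 2, Itgax at 0.597 (0.491 to 0.728) and Clec9a at 0.511 (0.380 to 0.692), leaned to the low library without a call. The part of dendritic cells and macrophages in the ratios of the higher ligands and of Cd40, Tnfrsf4 and Tnfrsf9 was not tested.

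Tnfsf9, which encodes the 4-1BB ligand, was at 137 CPM on 20864 reads against 13.4 CPM on 682 reads, a 10.2-fold difference (9.42 to 10.98). A transcript model of the other strand, Gm11110, overlaps its exons, and without strand their reads cannot be told apart. Cd70, which encodes the ligand of CD27, was at 26.8 against 4.22 CPM and 6.35-fold higher (5.53 to 7.32). Both genes belong to 1 run of neighbours with Tnfsf14, the gene of the lymphotoxin-related ligand LIGHT, which was at 2.45 against 1.32 CPM with an interval of 1.43 to 2.45. Tnfsf4, which encodes the OX40 ligand, was low in both libraries, with 4.91 CPM on 750 reads against 0.768 CPM on 39 reads, and its ratio was 6.39 (4.63 to 9.06). Tnfsf15, the gene of the ligand TL1A, was at 52.5 against 9.24 CPM and 5.68-fold higher (5.17 to 6.25).

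The 1 lower ligand was Tnfsf10, which encodes the death ligand TRAIL. It was at 39.3 against 107 CPM, so the low library was 2.72-fold above the high one (2.62 to 2.82). With the RPKM totals its log2 ratio of −1.44 became −0.44, within 2-fold. Per transcript length it led the ligands of the low library with 21.6 CPM per kb of transcript, while in the high library it was the tenth and Tnfsf9, at 111, came before the others. Endothelial (71.9 against 482 CPM) and fibroblast (190 against 1088 CPM) markers moved the same way as Tnfsf10, and their part in its difference was not tested.

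Tnfsf11, the gene of RANKL and the ligand best known for driving mTEC, was scarce in both libraries. It had 434 reads (2.84 CPM) against 59 reads (1.16 CPM), and the interval of its ratio, 1.86 to 3.26, reached below 2-fold. Cd40lg, the ligand gene of CD40, had 48 and 23 reads and the death ligand gene Fasl 33 and 41 reads, and both stayed under the minimum. These genes are known as products of T cells and other lymphoid cells. The other ligands past the minimum, among them the genes of the B cell survival factors BAFF (Tnfsf13b) and APRIL (Tnfsf13) and of ectodysplasin (Eda), had log2 ratios from −0.94 for Tnfsf12 to 0.88 for Tnfsf18. Tnfsf12, Tnfsf13 and the read-through gene Tnfsfm13, which joins them, share exons, so their reads cannot be assigned to 1 of them.

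**Figure D3:**
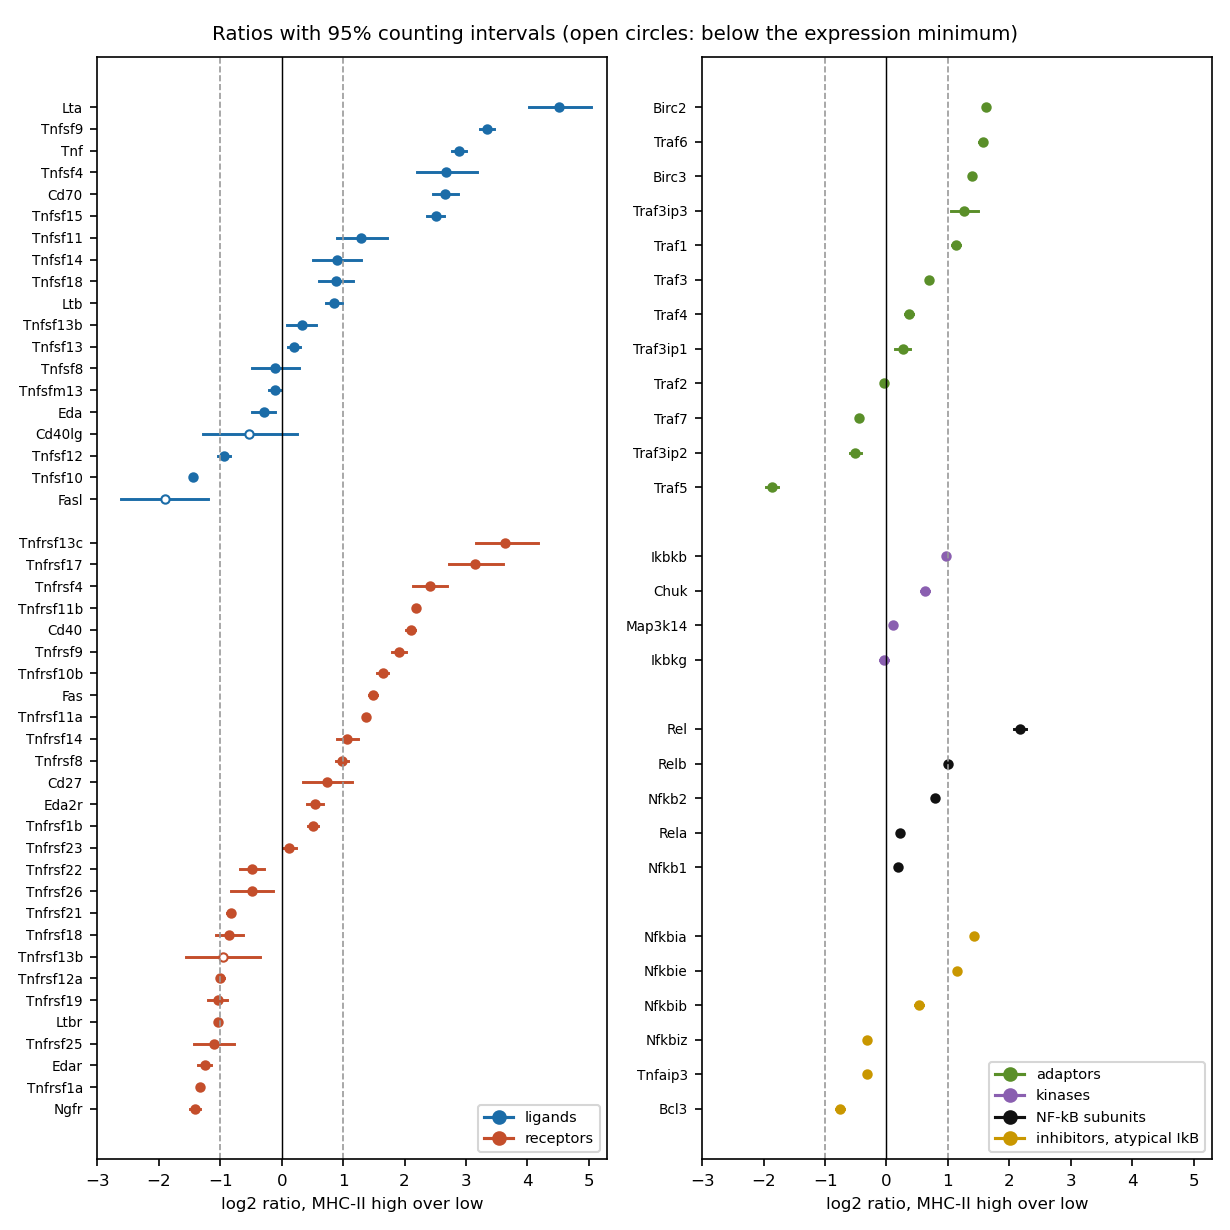
Points are log2 ratios of MHC-II high over low for each of the 73 genes, ordered by ratio within a role, and bars are 95% counting intervals (x axis in log2 units, dashed lines at 2-fold). Open circles mark the 3 genes under the minimum, Cd40lg, Fasl and Tnfrsf13b. The ligands run from −1.90 for Fasl to 4.51 for Lta, while the 4 kinases lie between −0.04 and 0.97.

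For the receptors, 26 of them past the minimum, 9 were called higher and 3 lower. That is 34.6% and 11.5%, beside 14.5% and 10.9% of all genes, so the share of lower genes was near that of all genes. Of the 24 at 1 CPM or more in both libraries 7 were higher and 3 lower, beside 12.2% and 9.87% of all such genes. The receptors known for mTEC maturation did not move together. Cd40, which encodes the receptor that T cells engage with CD40 ligand, was at 138 against 32.0 CPM, 4.30-fold higher (4.09 to 4.52). Its 5 listed transcripts had 19877 to 21052 reads each in the high library and log2 ratios from 2.10 to 2.11. Tnfrsf11a, the RANK gene, was at 215 against 82.7 CPM, a ratio of 2.60 (2.52 to 2.69). Ltbr, the gene of the lymphotoxin beta receptor, went the other way with 48.0 against 98.9 CPM, 2.06-fold higher in the low library, where the interval of 1.99 to 2.13 just included 2-fold. With the RPKM totals its log2 ratio of −1.04 became −0.04, close to equal levels.

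The decoy receptor gene Tnfrsf11b, whose product osteoprotegerin binds RANKL, stood at 259 CPM on 39541 reads against 56.8 CPM on 2886 reads, and was 4.55-fold higher in the high library (4.38 to 4.73). Per length it was the most abundant receptor transcript there, with 91.8 CPM per kb. RANK reached 42.9 on this scale and RANKL 1.27, so that in the MHC-II high library the decoy was above the receptor and the receptor above the ligand. In the low library RANK was at 16.5 and osteoprotegerin at 20.2, close to each other, and RANKL at 0.520. Cd40 and Fas came next among the receptors of the high library, at 77.2 and 72.0.

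Receptors known from the costimulation of T cells differed among themselves. Tnfrsf4, the OX40 gene, was at 11.8 against 2.23 CPM, a ratio of 5.32 (4.40 to 6.49), and Tnfrsf9, the 4-1BB gene, at 55.4 against 14.8 CPM, a ratio of 3.75 (3.48 to 4.05). Both are best known from activated lymphocytes. Within 2-fold or with an interval that reached it were Tnfrsf14 (log2 ratio 1.07), Tnfrsf8 (0.98), Cd27 (0.73), Tnfrsf18 (−0.85) and Tnfrsf25 (−1.10). Receptors with a death domain also went both ways. Higher were Tnfrsf10b, which encodes a TRAIL receptor, with 66.4 against 21.3 CPM (2.93 to 3.33), and Fas with 107 against 38.2 CPM (2.68 to 2.94). Tnfrsf1a (−1.33), Ngfr (−1.41) and Edar (−1.25) were lower, and Tnfrsf21 (−0.83) leaned that way within 2-fold. The shorter of the 2 listed Fas transcripts, on 2096 and 242 reads, had a log2 ratio of 1.52 beside 1.49 for the longer.

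The largest receptor ratios belonged to a pair of genes of the B cell lineage at low levels. Tnfrsf13c, which encodes the BAFF receptor, had 1316 reads (8.61 CPM) against 35 reads (0.689 CPM), a ratio of 12.5 (8.93 to 18.0). Tnfrsf17, which encodes the plasma cell receptor BCMA, had 1199 and 45 reads, a ratio of 8.85 (6.57 to 12.2). Of the 4 B cell markers reported, Ms4a1 was 6.92-fold higher (4.74 to 10.5), Cd79a was at 2.55 and 1.81 CPM, Cd79b at 19.97 and 20.2 CPM, and Pax5 at 0.556 and 0.315 CPM. Their summed level was 26.9 against 22.9 CPM, and the part of B cells in the ratios of Tnfrsf13c and Tnfrsf17 was not tested. Another receptor of this ligand group, Tnfrsf13b (TACI), had 62 and 40 reads and stayed under the minimum.

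The 3 lower receptors were Ngfr, Tnfrsf1a and Edar. Tnfrsf1a encodes the broadly expressed TNF receptor with a death domain and was at 60.6 against 153 CPM, a fold of 2.52 in favour of the low library (2.44 to 2.60). Ngfr, the gene of the neurotrophin receptor p75, was at 18.6 against 49.5 CPM (2.52 to 2.81), and Edar, the gene of the ectodysplasin receptor of skin appendages, at 10.7 against 25.5 CPM (2.21 to 2.56). Beyond their direction the 3 share little in level, since Tnfrsf1a lay at 70.9 CPM per kb in the low library, Ngfr at 14.6 and Edar at 6.93. All 3 kept a negative log2 ratio with the RPKM totals, from −0.41 for Ngfr to −0.25 for Edar, but none was then beyond 2-fold. With unscaled totals Edar was no longer beyond 2-fold either. Fibroblast markers (190 against 1088 CPM) and endothelial markers (71.9 against 482 CPM) were lower in the same library, and their part in these ratios was not tested.

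Tnfrsf12a, which encodes the receptor of the cytokine TWEAK, was the most abundant receptor per length in the low library, at 71.2 CPM per kb, and was at 34.4 against 68.7 CPM with an interval of 1.91 to 2.08 in favour of the low library. The other TNF receptor, Tnfrsf1b, was at 42.9 against 30.1 CPM. The remaining receptors past the minimum had log2 ratios from −1.10 for Tnfrsf25, the receptor gene of TL1A, to 1.07 for Tnfrsf14, which encodes the receptor HVEM. The death-domain-free cluster Tnfrsf22, Tnfrsf23 and Tnfrsf26, neighbours of related sequence whose reads may be shared, had log2 ratios of −0.48, 0.12 and −0.49.

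Ligands and receptors that bind each other were set side by side in 23 known pairs, 20 of them with both genes past the minimum. In 2 of these 20 both genes were called higher, Tnfsf4 with Tnfrsf4 and Tnfsf9 with Tnfrsf9. Tnfsf4 was under 1 CPM in the low library, and 35.3% of the ligands and 34.6% of the receptors were higher singly, so no pairing is read from this count. In 5 the ligand alone was higher, in 5 the receptor alone, and in 8 neither was. Some pairs had opposite calls. Tnf and Lta were higher and Tnfrsf1a, the receptor of both, was lower, with log2 ratios of 2.88 and 4.51 against −1.33. For TRAIL the ligand gene Tnfsf10 was lower and Tnfrsf10b, the one receptor gene paired with it here, higher, at −1.44 and 1.64. Fas was higher while its ligand was under the minimum, and Cd40 likewise. Several pairs share a gene, so they are not independent of each other.

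**Figure D4:**
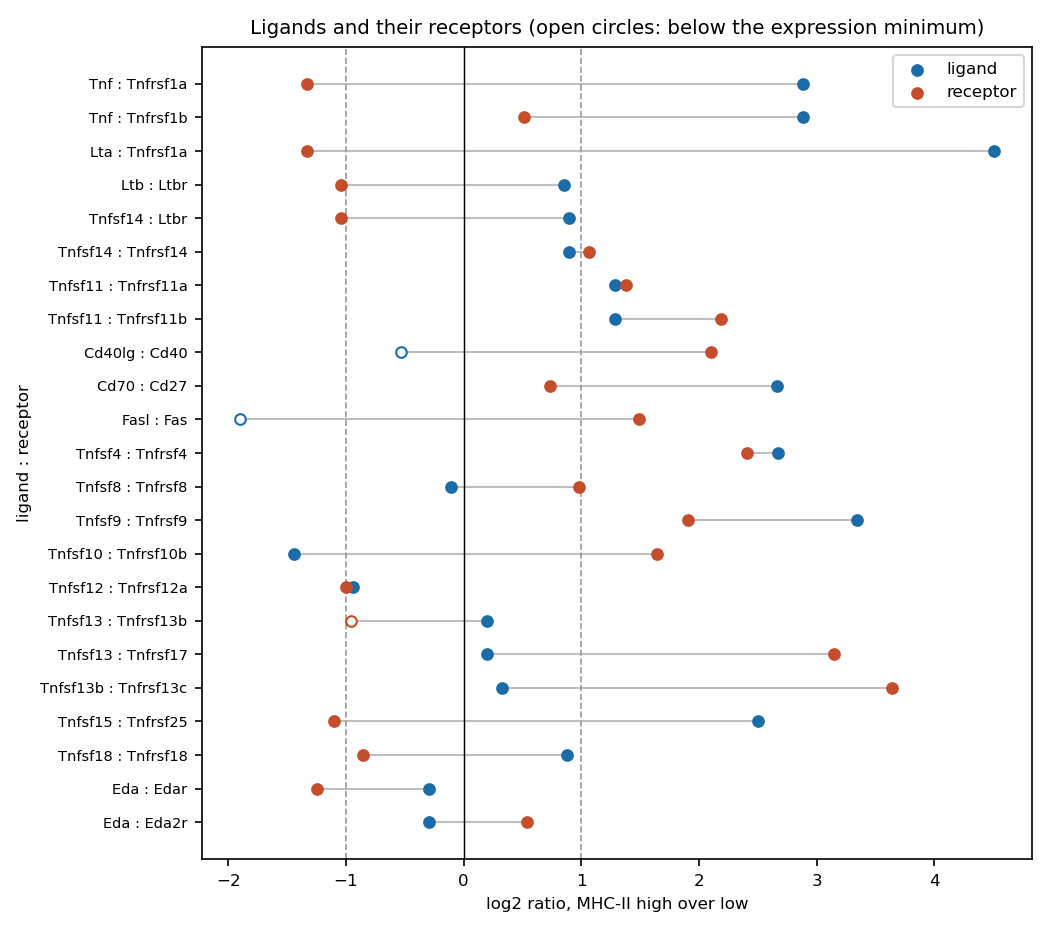
Each row is 1 ligand and receptor pair, with the log2 ratio of MHC-II high over low of the ligand and of the receptor joined by a line (x axis in log2 units, dashed lines at 2-fold, open circles under the minimum). For pairs with a call for both genes, the lines for Tnf and Lta with Tnfrsf1a and for Tnfsf10 with Tnfrsf10b cross from beyond 2-fold on one side to beyond 2-fold on the other.

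Of 12 adaptor genes, all at 1 CPM or more in both libraries, 5 were higher and 1 lower. That is 41.7% and 8.33%, beside 12.2% and 9.87% of all such genes. The symbol rule also took in Traf3ip1, Traf3ip2 and Traf3ip3, whose products are named for binding TRAF3 and are not TRAF proteins. Without them 4 adaptor genes were higher and 1 lower, and of 67 genes of all roles past the minimum 22 were higher and 5 lower. Birc2 and Birc3 encode the ubiquitin ligases cIAP1 and cIAP2, which hold NIK in check and act in TNF receptor signalling. Birc3 was at 478 against 183 CPM, a ratio of 2.61 (2.56 to 2.67), and its neighbour Birc2 at 425 against 138 CPM, a ratio of 3.07 (2.99 to 3.15). Birc3 was the most abundant adaptor transcript per length in both libraries, at 170.0 and 65.0 CPM per kb. Traf6, the adaptor of RANK, CD40 and the Toll-like receptors, was at 184 against 62.2 CPM (2.85 to 3.07), and Traf1, itself an NF-kB target gene, at 107 against 48.9 CPM (2.10 to 2.29). Traf3ip3, a TRAF3-interacting protein gene known from lymphocytes, was at 9.08 against 3.78 CPM (2.06 to 2.81), and a transcript model of the other strand overlaps its exons.

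The TRAF genes differed among themselves. Traf5 was at 9.46 against 34.4 CPM, with the low library 3.64-fold above (3.39 to 3.90), which is the most negative log2 ratio, −1.86, of the 70 genes. With the RPKM totals it was −0.86, and a transcript model of the other strand overlaps Traf5. Traf2, which pairs with TRAF5 in TNF receptor signalling, was near equal at 107 and 110 CPM, and the sign of its small difference changed with unscaled and RPKM totals. Traf3, which holds NIK for degradation, was at 143 against 88.8 CPM, with an interval of 1.57 to 1.67. The rest of the adaptor genes, Traf3ip1 and Traf3ip2 among them, lay between log2 ratios of −0.51 for Traf3ip2 and 0.37 for Traf4.

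None of the 4 kinase genes was beyond 2-fold. Of all genes at 1 CPM or more in both libraries, 12.2% were higher and 9.87% lower. Ikbkb, which encodes the catalytic IKK subunit of the canonical pathway, was at 151 against 76.7 CPM with an interval of 1.90 to 2.03 and led the kinases of the high library per length. Chuk, the IKK-alpha gene, was at 80.9 against 52.4 CPM. Map3k14, the NIK gene, was at 108 against 100.1 CPM and Ikbkg, the gene of the scaffold NEMO, at 53.7 against 55.2 CPM. NIK is known to be set mainly by protein turnover, which RNA does not show.

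All 5 NF-kB subunit genes had point ratios above 1, beside 48.4% of all genes at 1 CPM or more in both libraries. Rel alone had its whole interval beyond 2-fold, 20% of the 5, beside 12.2% of all such genes called higher. Rel, which encodes c-Rel, known mainly from lymphocytes, was at 79.3 CPM on 12116 reads against 17.6 CPM on 895 reads, 4.50-fold higher (4.20 to 4.82). Relb was at 265 against 133 CPM with an interval of 1.95 to 2.05, and Nfkb2 at 399 against 232 CPM with one of 1.69 to 1.76. Rela and Nfkb1, the classical dimer, were near equal, at 132 against 113 CPM and 189 against 165 CPM. Per length the order was the same in both libraries, Nfkb2 first, at 125 and 72.4 CPM per kb, then Relb (120.4 and 60.3), Rela (48.8 and 41.9), Nfkb1 (45.8 and 40.0) and Rel (30.7 and 6.82). The non-canonical partners Nfkb2 and Relb were thus the most abundant subunit transcripts in each fraction. Gene models of the other strand, Psd among them, overlap exons of Nfkb2, and without strand their reads cannot be told apart. Pan-leukocyte markers summed to 629 against 222 CPM, of which Laptm5 gave 590 against 184 CPM while Ptprc was at 13.6 against 19.4 CPM and Coro1a at 24.5 against 18.7 CPM. Dendritic cell and macrophage markers summed to 96.9 against 42.9 CPM. The part of such cells in the ratio of Rel was not tested.

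Of the 6 inhibitor genes, Nfkbia and Nfkbie were higher and the others within 2-fold. That is 33.3% higher, beside 12.2% of all genes at 1 CPM or more in both libraries. Nfkbia, the gene of IkB-alpha and a feedback target of NF-kB, had 234979 reads (1537 CPM) against 29195 reads (575 CPM), 2.67-fold higher (2.64 to 2.71). It was the most abundant of the 73 genes per length in both, at 974 and 364 CPM per kb, above 99.9% and 99.2% of all genes past the minimum. Nfkbie, the IkB-epsilon gene, was at 275 against 125 CPM (2.15 to 2.26) and Nfkbib, the IkB-beta gene, at 57.2 against 39.7 CPM (1.37 to 1.52). The atypical members and the deubiquitinase gene Tnfaip3 (A20) leaned to the low library within 2-fold. Nfkbiz was at 291 against 363 CPM, Tnfaip3 at 353 against 442 CPM, and Bcl3 at 35.6 against 60.2 CPM. The signs of these last 3 turned positive with the RPKM totals.

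**Figure D5:**
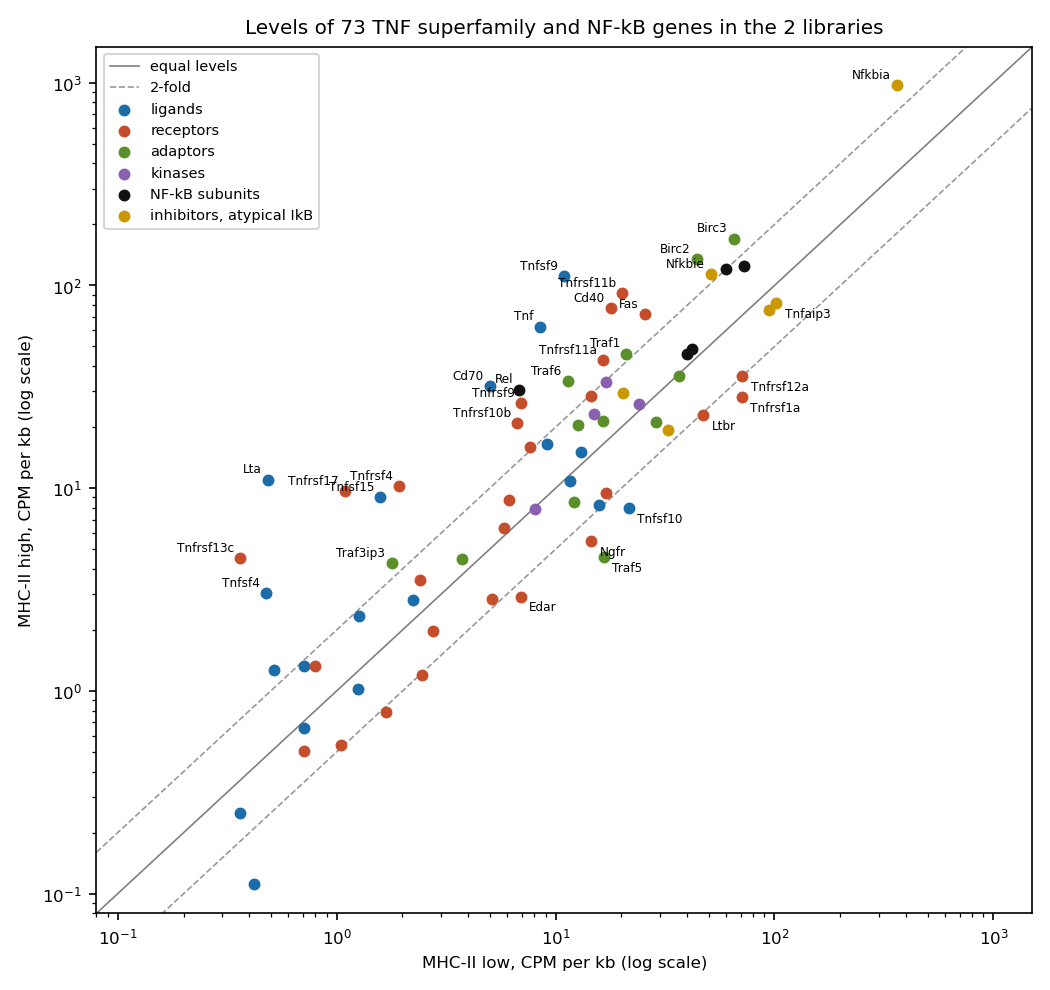
Each point is 1 of the 73 genes, with its level in CPM per kb in the MHC-II low (x axis) and the MHC-II high library (y axis), both on log scales, coloured by role, with lines for equal levels and for 2-fold. Nfkbia stands apart at the top right (364 and 974), and Lta, Tnfrsf13c, Tnfrsf17 and Tnfsf4 lie far above the upper 2-fold line at low levels.

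NF-kB dimers bind a short DNA motif, and several subunit and inhibitor genes held it before their start sites. The NF-kB consensus decamer, searched on both strands in the 250 bases before each RefSeq start site, was found in 3.90% of all windows (1281 of 32851) and in 11 of 69 windows of pathway genes. Counted by gene, it was found for 9 of the 58 pathway genes that had a window in the table, 15.5%, beside 4.46% of all genes and 5.66% of those past the minimum. By role it was in 2 of 3 subunit genes, Rel and Nfkb2, in 3 of 5 inhibitor genes, Nfkbia, Nfkbie and Tnfaip3, in 2 of 22 receptor genes, 1 of 14 ligand genes, 1 of 11 adaptor genes and 0 of 3 kinase genes. The stretches of the subunit and inhibitor genes are shown because these are the genes known for feedback by NF-kB. They are from RefSeq on GRCm38.p6, lie wholly before the start site and are written 5′ to 3′ on the gene's strand, with bases of the motif in capitals (overlapping matches run together).
Nfkbia, chr12:55492648-55492747, minus strand: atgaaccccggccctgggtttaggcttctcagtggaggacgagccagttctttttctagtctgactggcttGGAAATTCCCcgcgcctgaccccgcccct
Nfkbie, chr17:45555549-45555648, plus strand: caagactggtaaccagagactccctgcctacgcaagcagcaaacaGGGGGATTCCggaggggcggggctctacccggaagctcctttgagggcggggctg
Tnfaip3, chr10:19015413-19015535, minus strand: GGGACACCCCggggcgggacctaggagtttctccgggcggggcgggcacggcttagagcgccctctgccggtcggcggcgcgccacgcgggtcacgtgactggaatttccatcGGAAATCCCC
Rel, chr11:23771007-23771106, minus strand: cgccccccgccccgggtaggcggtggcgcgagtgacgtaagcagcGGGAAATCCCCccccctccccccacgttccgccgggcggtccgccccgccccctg
Nfkb2, chr19:46304637-46304736, plus strand: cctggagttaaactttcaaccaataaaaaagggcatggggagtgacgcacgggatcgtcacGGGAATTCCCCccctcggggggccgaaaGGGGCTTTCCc
The genes with the motif did not share a ratio. Nfkbia, Nfkbie and Rel were beyond 2-fold higher, Nfkb2 had a log2 ratio of 0.78, and Tnfaip3 one of −0.32. Both Tnfaip3 and Nfkb2 hold separate matches in the stretch shown. Windows of other Nfkb2 start sites that also hold a match are not shown. Of the 17 higher pathway genes with a window 4 held the motif, of the 5 lower ones 0, and of the 34 in between 5. The same shares over all genes past the minimum were 7.20%, 5.74% and 5.36%. A match describes letters and not binding, and a window without one says nothing of the factor.

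Members that neighbour each other on a chromosome were not alike either. In the RefSeq gene order 23 of the 73 stood in 9 runs with no other protein-coding gene between them. Birc2 and Birc3 were the run in which every gene was higher. Tnfrsf4 (log2 ratio 2.41) neighbours Tnfrsf18, the gene of the receptor GITR (−0.85), and Tnfsf15 (2.51) neighbours Tnfsf8, the CD30 ligand gene (−0.11). The run of Tnfsf4, Tnfsf18 and Fasl spanned log2 ratios from 2.68 over 0.88 to −1.90, the last on 33 and 41 reads.

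Other genes of the pathway were read from a list of 34, of which 33 were matched and all 33 passed the minimum. Of the 33, all at 1 CPM or more in both libraries, 5 were higher and 2 lower on the MHC-II high side. That is 15.2% and 6.06%, beside 12.2% and 9.87% of all such genes, so the list's share of higher genes was near the background. Its median log2 ratio was 0.38, beside −0.01 over all genes. The higher ones were Tnip3, which encodes an A20-binding inhibitor (54.2 against 12.3 CPM), Cflar, the gene of the caspase-8 inhibitor c-FLIP (404 against 99.0 CPM), the kinase gene Map3k8 (198 against 65.6 CPM), Casp8 (51.7 against 22.4 CPM) and Tank (226 against 99.6 CPM). The lower ones were Tradd, the death domain adaptor of TNF receptor 1 (12.2 against 32.7 CPM), and Tab1, a partner of the kinase TAK1 (17.6 against 48.2 CPM). Tradd, its receptor gene Tnfrsf1a and Traf5 were called lower, but other genes of TNF receptor signalling were not. Ripk1 (61.7 against 66.2 CPM) and Traf2 (107 against 110 CPM) were near equal, and Birc2 and Birc3 were called higher. With the RPKM totals 0 of the list were lower.

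Of 30 genes known as NF-kB targets in other cells, all at 1 CPM or more in both libraries, 10 were called higher and 4 lower. That is 33.3% and 13.3%, beside 12.2% and 9.87% of all such genes. The median log2 ratio of the 30 was 0.81. Both this list and that of the other pathway genes were chosen with earlier results of these data known. Their shares are therefore a description and not an independent check. Nos2, which encodes the inducible nitric oxide synthase, was at 334 against 26.8 CPM, a ratio of 12.5 (11.8 to 13.2). Ptgs2, which encodes the prostaglandin synthase COX-2, was at 1470 against 125 CPM, and the adhesion molecule gene Madcam1 at 27.6 against 2.28 CPM. The costimulatory gene Cd80 was at 133 against 13.4 CPM and the chemokine gene Cxcl2 at 262 against 27.7 CPM. Further down were Ccl5 (4.43-fold), Cxcl13 (4.38-fold), the cytokine gene Csf2 (3.95-fold), Cxcl1 (3.74-fold) and Peli1 (2.59-fold).

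The 4 lower targets were Il6, Sele, Mmp9 and Ier3. The cytokine gene Il6 was at 3.05 against 28.6 CPM, with the low library 9.37-fold above (8.43 to 10.4). Sele, which encodes E-selectin of activated endothelium, was at 4.20 against 23.8 CPM, 5.66-fold higher there (5.14 to 6.24), and the 8 endothelial markers were lower in the high library as well, at 71.9 against 482 CPM in sum. Mmp9 was at 84.1 against 239 CPM and Ier3, an immediate early gene, at 65.1 against 152 CPM. The part of endothelial and stromal cells in these ratios was not tested. The other 16 targets, within 2-fold, included abundant ones such as Icam1 at 963 against 527 CPM, Cxcl10 at 1086 against 594 CPM and Junb at 1330 against 1763 CPM.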

How the data were processed

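The 2 libraries were made by the authors from poly-A RNA without strand. Per the submitters' processing notes, CASAVA, Bowtie 1.0.0, bedtools and the build mm9 were used. Their settings and the annotation are not given in the sources used here. The authors deposited, per the file headers, a read count, a length and an RPKM value per RefSeq transcript. The deposited RPKM equals the count over the length and over 1 read total per library, 213854095 for MHC-II high and 142330178 for MHC-II low, of which transcript counts summed to 89.5% and 52.0%.

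Stray lines (18 and 36) were left out. Genomic copies, listed on 840 lines for 339 accessions of the high table and on 0 of the low one, were summed. Of these accessions, 325 then had the same length in both, and 0 belonged to pathway genes. Of 29920 accessions, 29800 in both tables with the same length were used, and every pathway gene was among them. Symbols came from RefSeq GRCm38.p6 (29352 accessions) and GENCODE vM21 (174), and 394 accessions without one stood for themselves. The transcript with the most reads represented a gene. TMM totals came from edgeR 4.0.16 (R 4.3.3) on genes with at least 1 CPM on average, and alternatives included DESeq2 1.42.0 size factors. Intervals were computed with scipy 1.17.1. The comparison was tested on simulated data with counting error alone, the error that the intervals assume. Spread between libraries was not simulated, so that test says nothing of it. A limit of 3 reads is 0.0196 CPM for MHC-II high and 0.0591 CPM for MHC-II low, and every pathway gene was above it.

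The members, lists and alternatives were chosen with earlier results of these data known. The genes named were those past the minimum with an interval beyond 2-fold and the most abundant per length in each role, and others were named after their values were seen. Exon overlaps and gene order are from GRCm38 annotations, names only. Nfkbid and Cd68 were listed but are not analysed here. A further listed B cell marker is not reported here.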

Additional observations from a re-analysis of the deposited data

How the results depend on the processing

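With DESeq2 size factors, upper-quartile totals or the longest transcript, the counts of higher and lower genes, the median and both further lists stayed within 1.5 times of the values given, and all 23 higher and 5 lower pathway genes kept their calls. With unscaled totals the same 23 stayed higher and 4 of the 5 lower stayed lower (not Edar). Of the 33 listed other pathway genes 10 were then higher, beside 19.6% of all genes. The totals behind the deposited RPKM moved most values: 46 pathway genes were higher, the former 23 among them, and 0 lower, their median log2 ratio was 1.59, other pathway genes were 22 higher and 0 lower, targets 21 higher and 2 lower, and all genes 7700 and 568. No called gene changed sign under these totals. Without a minimum 23 pathway genes were higher and 6 lower, 31.5% and 8.22%, beside 12.4% and 16.7% of all genes (2837 and 3822). With one of 5 CPM 20 were higher and 5 lower, 34.5% and 8.62%. Of all 13451 genes past that minimum 12.3% and 10.6% were (1652 and 1427). By the point ratio alone 25 pathway genes were higher and 8 lower, 35.7% and 11.4%, beside 17.4% and 13.4% of all genes. At 1.5-fold 32 pathway genes were higher and 13 lower, 45.7% and 18.6%, beside 22.8% and 20.4% of all genes (3973 and 3562). Of the other pathway genes 13 were then higher and 2 lower, and of the targets 16 and 4. At 3-fold 13 pathway genes were higher and 1 lower, 18.6% and 1.43%, beside 8.01% and 5.24% of all genes (1397 and 914). Of the other pathway genes 2 were then higher and 0 lower, and of the targets 9 and 2. The rank of Nfkbia per length was 1 in both libraries also by the RPKM as deposited. With 1 library per group no library could be left out. No paired analysis was possible because each group had 1 library. Depth limits the ratios of Cd40lg, Fasl and Tnfrsf13b, with 23 to 62 reads each. It also limits those of the called genes Lta, Tnfrsf13c, Tnfsf4 and Tnfrsf17, with 34 to 45 reads each in the low library.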
